A study of Mus musculus with 4 samples.

Results

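Some beta cells of Sel1L knockout islets carried large amounts of Pyy RNA, and these cells are described here. A beta cell was a cell in which Ins1 and Ins2 together made up at least 10% of its transcripts and Gcg and Sst each less than 1%. It was called rich in Pyy when its Pyy transcripts, counted as unique molecular identifiers (UMIs), exceeded a set limit, and low otherwise. The poorest rich cells held 336 and 340 Pyy UMIs in KO libraries 1 and 2, and the richest low cells held 331 and 332. The knockout (KO) libraries held 2045 rich cells among 3860 beta cells and 6820 cells in all, and the whole series held 18612 cells. The KO mice were Sel1LIns1, with Cre recombinase driven by the insulin gene Ins1 on floxed Sel1L, and the wild type (WT) mice were Sel1Lf/f without Cre. Floxed alleles were thus present in both genotypes, all mice were C57BL/6, and no Cre control with intact Sel1L is among these samples, so what Cre alone does cannot be told apart from loss of Sel1L. The age is 7 weeks in the sample labels and 5 weeks in the series text. Islets rested overnight in RPMI medium before trypsin dissociation and 10x Genomics 3′ profiling. There were 2 libraries per genotype, and nothing in the labels says that they came from separate animals. P-values thus cover spread between libraries only, and whether that is spread between animals is not known. For rich against low cells of the same libraries it is the spread of their difference between libraries.

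PYY and PPY are short amidated peptides of the neuropeptide Y (NPY) family. PYY is known best from enteroendocrine L cells of the gut, and PPY, pancreatic polypeptide, is the defining hormone of islet PP cells; Pyy RNA is also present in mouse PP cells. Mature beta cells rely on MAFA, the glucose transporter GLUT2 (Slc2a2) and urocortin 3 (Ucn3). SEL1L works with the ubiquitin ligase HRD1. Together they clear misfolded proteins from the endoplasmic reticulum (ER), a process called ER-associated degradation (ERAD). The study asked what this pathway does for the identity and function of beta cells.

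The KO libraries held 4337 and 2483 cells with 160208775 and 99156230 UMIs, and the WT libraries 5951 and 5841 cells with 215467602 and 228515309 UMIs. Between 1 and 9 cell barcodes were shared by any pair of libraries. Sel1l RNA averaged 76.8 and 78.8 CPM (counts scaled to a common library total) in rich and 75.9 and 82.9 CPM in low KO beta cells. Counts of 3′ ends do not show whether the floxed part was removed, so this is no check of the deletion.

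Pyy-rich cells were common in the KO libraries and scarce in the WT libraries. They were 61.6% of beta cells in KO library 1 (1520 of 2469 cells, exact 95% binomial interval 59.6% to 63.5%) and 37.7% in KO library 2 (525 of 1391 cells, interval 35.2% to 40.4%). In WT library 1 they were 3.22% (120 of 3725 cells, interval 2.68% to 3.84%) and in WT library 2 3.07% (113 of 3683 cells, interval 2.54% to 3.68%). The intervals cover counting error only. The share was 49.7% ± 16.8 (SD, n = 2) in KO and 3.15% ± 0.108 (SD, n = 2) in WT libraries, and every KO library lay above every WT library. A two-sided exact permutation test of this difference gave p = 0.33, the smallest that 2 libraries against 2 can give. Cells were also thinned to 10000 UMIs each and asked to hold Pyy at 1% or more of their transcripts. The shares were then 57.3% and 32.7% in KO and 3.29% and 2.84% in WT beta cells. KO libraries differed from each other by more than the WT libraries did.

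**Figure D1:**
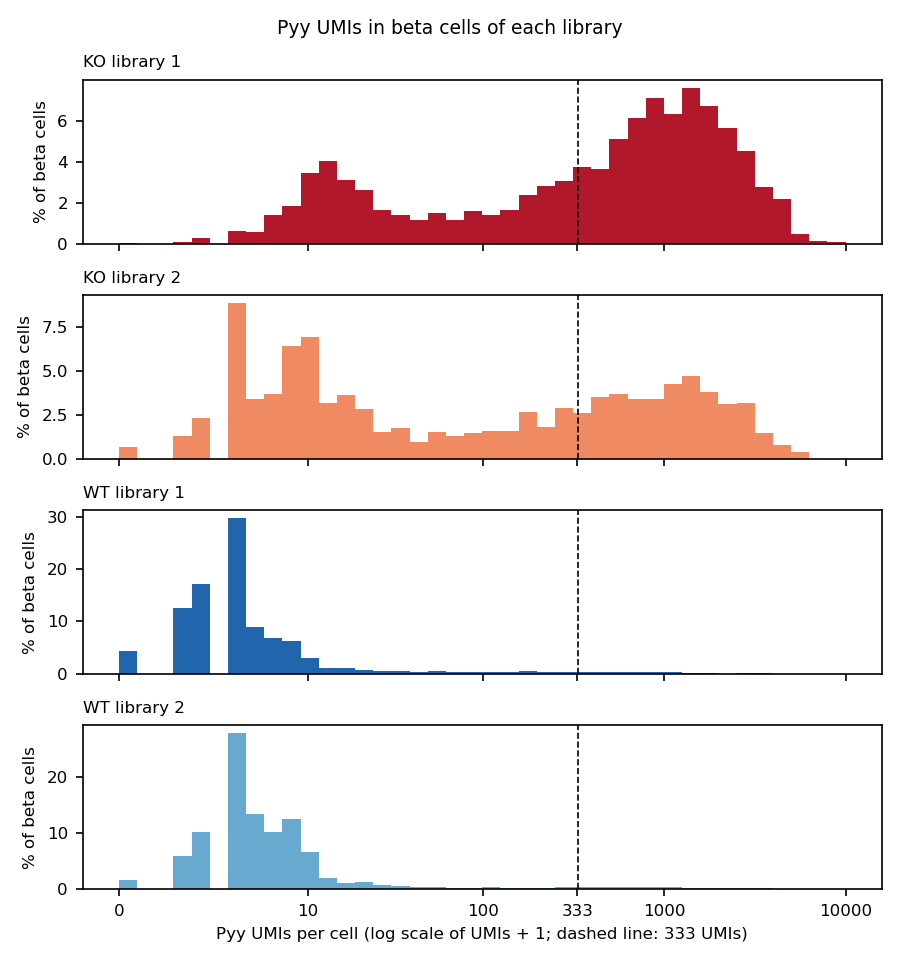
Pyy UMIs per beta cell on a log axis, as the percent of beta cells in each bin, with KO libraries above WT libraries and the limit as a dashed line. KO cells formed a low group near 10 UMIs and a broad high group around 1000 UMIs, with cells at every level between them. Most WT cells lay below 10 UMIs, and 5.26% and 4.72% of them exceeded 100.

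Rich cells carried a median of 1222 and 1135 Pyy UMIs in KO libraries 1 and 2, against 28 and 11 in low cells. These values were set by the choice of cells. Endothelial cells, which should lack Pyy and had median totals of 10101 and 9699 UMIs, carried medians of 5 and 2 Pyy UMIs in the KO libraries. Their totals were far below those of beta cells, so these medians cannot be set directly beside those of low cells. Of the 186 and 181 endothelial cells, 7 and 3 exceeded the Pyy limit. The part of free RNA in the Pyy of low cells was not tested. At the limit itself, 44 and 15 KO cells lay within 10% above it, and 32 and 16 within 10% below it. Ppy stood at 8399 and 6421 CPM in the cells just above the limit, and at 11140 and 6019 CPM in those just below it. The 2 sides of the limit did not separate in Ppy. Mafa stood at 33.1 and 43.2 CPM just above the limit, against 46.0 and 83.5 CPM just below it, and was lower above it in both libraries. Ucn3 stood at 53.4 and 45.3 CPM just above the limit, against 93.3 and 29.99 CPM just below it, so the libraries went opposite ways. Tspan8, a gene higher in rich cells as a whole, stood at 88.4 and 131.7 CPM just above the limit, against 144.4 and 107.1 CPM just below it. Here too the libraries went opposite ways. These are few cells and values with no test.

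Rich cells were slightly smaller libraries than low cells and held less insulin RNA. The median rich cell had 42697 and 47837 UMIs, and the median low cell 46008 and 53029. It had 5408 and 5615 detected genes, against 5534 and 5782 in low cells. Mitochondrial transcripts made up a median of 3.74% and 3.70% in rich and 3.48% and 3.51% in low cells. Insulin transcripts made up 37.4% and 40.8% of the median rich cell and 43.9% and 46.2% of the median low cell; part of the gap follows from the choice of cells, since all are shares of 1 total. Doublets, called by likeness to simulated pairs of cells, were 4.08% and 2.86% of rich and 1.79% and 1.27% of low KO cells. In the WT libraries they were 23.3% and 40.7% of rich and 4.85% and 4.82% of low cells.

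Ppy, the neighbour of Pyy, was higher in rich cells. CPM are given for all genes below from UMIs summed over the cells of a class in a library, and their totals leave out Ins1, Ins2, Gcg, Sst and Pyy, the genes that chose the cells. Ppy reached 22437 and 18239 CPM in rich cells, against 10429 and 7345 CPM in low cells. Both rich sums lay above both low sums, with a log2 change of 1.22 (SE 0.04, adjusted p = 1.72e-08; edgeR quasi-likelihood test with library as block). The rank correlation of Pyy and Ppy UMIs was 0.35 over the 2469 beta cells of KO library 1 and 0.38 over the 1391 of KO library 2. Over rich cells alone, where the choice of cells cuts off the range of Pyy, it was 0.21 (1520 cells) and 0.13 (525 cells); the cells of a library share its depth and free RNA. More than 100 Ppy UMIs were found in 59.2% and 55.8% of rich and 32.5% and 27.8% of low cells. Endothelial cells of the KO libraries, which should lack Ppy and had lower totals, held medians of 6 and 3 Ppy UMIs. The median cell stood at 7600 and 5856 CPM of Ppy among rich, 1058 and 601 CPM among low and 545 and 254 CPM among endothelial cells. Summed over all their cells, endothelial cells stood at 7363 and 7159 CPM, near the sums of low cells, and 10 cells held 94.3% and 97.2% of those Ppy UMIs. Ppy made up more of the transcripts than insulin did in 6 and 1 of the rich cells. Npy, the family's other peptide gene, was below 1 CPM in each KO class and was not tested.

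Pyy and Ppy lie beside each other on chromosome 11. In GENCODE vM21 (GRCm38) Ppy (ENSMUSG00000017316) spans chr11:102099930-102101319 and Pyy (ENSMUSG00000017311) spans chr11:102106676-102107832, both on the minus strand, 5357 bases apart. The 250 bases before each start are shown because the genes are neighbours and Ppy was higher in cells chosen for Pyy; they are RefSeq windows of GRCm38.p6, read 5′ to 3′ on the minus strand, from chr11:102101320-102101569 for Ppy and chr11:102107833-102108082 for Pyy. Capitals mark TGCTGA, letters found in the sites that MAF proteins bind, and TATAA, the core of a TATA box.
Ppy: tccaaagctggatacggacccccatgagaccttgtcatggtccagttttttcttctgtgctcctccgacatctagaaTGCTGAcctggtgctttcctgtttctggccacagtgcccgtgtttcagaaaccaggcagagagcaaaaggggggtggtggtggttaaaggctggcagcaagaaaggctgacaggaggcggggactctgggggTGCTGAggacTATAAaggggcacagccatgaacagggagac
Pyy: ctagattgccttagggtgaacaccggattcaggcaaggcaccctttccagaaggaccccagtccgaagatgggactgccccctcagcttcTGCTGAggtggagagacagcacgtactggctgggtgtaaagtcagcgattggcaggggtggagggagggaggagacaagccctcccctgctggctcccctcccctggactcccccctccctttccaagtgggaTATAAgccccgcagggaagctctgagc
TGCTGA was searched on both strands and was present in 16.1% of 32851 windows of this length, and TATAA on the sense strand only, in 5255 of them. Ppy held TGCTGA 2 times and Pyy 1 time, and each held TATAA 1 time. A match of letters is a description and shows no binding. Of 20 genes within 250 kb, Pyy itself among them, 16 were tested and 4 were called, against 7.39% of all tested genes. Besides Ppy, which is described above, Mpp2 had a log2 change of 0.18 (adjusted p = 0.0494), Mpp3 of -0.43 (adjusted p = 0.0469) and BC030867 of -1.82 (adjusted p = 0.00402). These 3 were chosen by position.

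Across all genes, 1019 of 13798 tested genes (7.39%) differed between rich and low KO cells at an adjusted p under 0.05, 428 higher (3.10%) and 591 lower (4.28%) in rich cells. The counts of list genes between rich and low KO cells given below are to be read beside these shares of 3.10% higher and 4.28% lower. The median log2 change over all tested genes was 0.00. Most changes were small: 31 of the higher and 99 of the lower genes moved by more than 1 on the log2 scale. With each KO library left out, in a fit over the other 6 sums that takes the spread from the WT libraries, 330 genes were called without KO library 1 and 563 without KO library 2. Without doublet calls 1279 genes were called, and DESeq2 called 157. The fit has 1 residual degree of freedom, so it leans on the spread shared by all genes.

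Among genes with at least 50 CPM in the class with more, the higher calls were led by Tspan8, Ppy and Rbp4; Ptger3, below that level, is given with the PP cell genes. Tspan8, a tetraspanin of the cell surface, stood at 165 and 173 CPM in rich cells, against 65.2 and 71.2 CPM in low cells (log2 change 1.33, SE 0.03, adjusted p = 3.92e-09). Rbp4, the plasma carrier of retinol, stood at 130 and 103 CPM in rich cells, against 61.9 and 43.2 CPM in low cells (1.16, SE 0.05, adjusted p = 1.23e-07). The classes did not overlap for either gene. Gpx3, a secreted glutathione peroxidase, rose by 1.12 (SE 0.07, adjusted p = 5.94e-06). Fxyd3, a regulator of the sodium pump, rose by 0.96 (SE 0.05, adjusted p = 7.58e-07). Id3, an inhibitor of DNA binding by basic helix-loop-helix factors, rose by 0.78 (SE 0.08, adjusted p = 1.02e-04). Txnip, which binds thioredoxin and is induced by glucose, stood at 613 and 633 CPM in rich cells, against 380 and 375 CPM in low cells (0.74, SE 0.02, adjusted p = 2.87e-08). Itpr1, a calcium channel of the ER, rose by 0.66, Aqp4, a water channel, by 0.64, and the histone gene Hist3h2ba by 0.605. Their adjusted p-values were 2.91e-04, 5.11e-06 and 3.79e-06, and Itpr1 had a log2 change of 0.44 without KO library 1.

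Among genes with at least 50 CPM in the class with more, the lower calls were led by 6330403K07Rik and Ucn3; some genes below that level, such as the cycle genes given further on, had larger changes. 6330403K07Rik stood at 31.8 and 26.9 CPM in rich cells, against 71.2 and 52.8 CPM in low cells (log2 change -1.08, SE 0.05, adjusted p = 7.58e-07). Ucn3, a peptide released with insulin that drives delta cells, stood at 39.0 and 42.4 CPM in rich cells, against 90.2 and 79.9 CPM in low cells (-1.08, SE 0.06, adjusted p = 1.87e-06). Mafa, the activator of insulin transcription, stood at 47.7 and 50.8 CPM in rich cells, against 71.3 and 89.1 CPM in low cells (-0.66, SE 0.05, adjusted p = 2.05e-05). In each of these genes both rich sums lay below both low sums. Igfbp5, which binds insulin-like growth factors, fell by 0.74 (SE 0.04, adjusted p = 2.28e-06), Msln, a surface protein, by 0.64 (SE 0.05, adjusted p = 1.54e-05), and Ppp1r1a, an inhibitor of protein phosphatase, by 0.58 (SE 0.06, adjusted p = 8.11e-05). Prss53 fell by 0.555 (SE 0.03, adjusted p = 4.39e-06). Nupr1, a stress-induced nuclear protein, stood at 1497 and 1805 CPM in rich cells, against 2325 and 2654 CPM in low cells (-0.58, SE 0.02, adjusted p = 1.09e-07). Spc25, a kinetochore protein, fell by 0.59 (adjusted p = 6.53e-04), and its log2 change was -0.325 without KO library 1. Stmn1, which destabilises microtubules, had a log2 change of -0.97 (adjusted p = 0.0139), but -0.14 (adjusted p = 0.875) without KO library 1 and -0.08 (adjusted p = 0.822) without cycling cells.

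**Figure D2:**
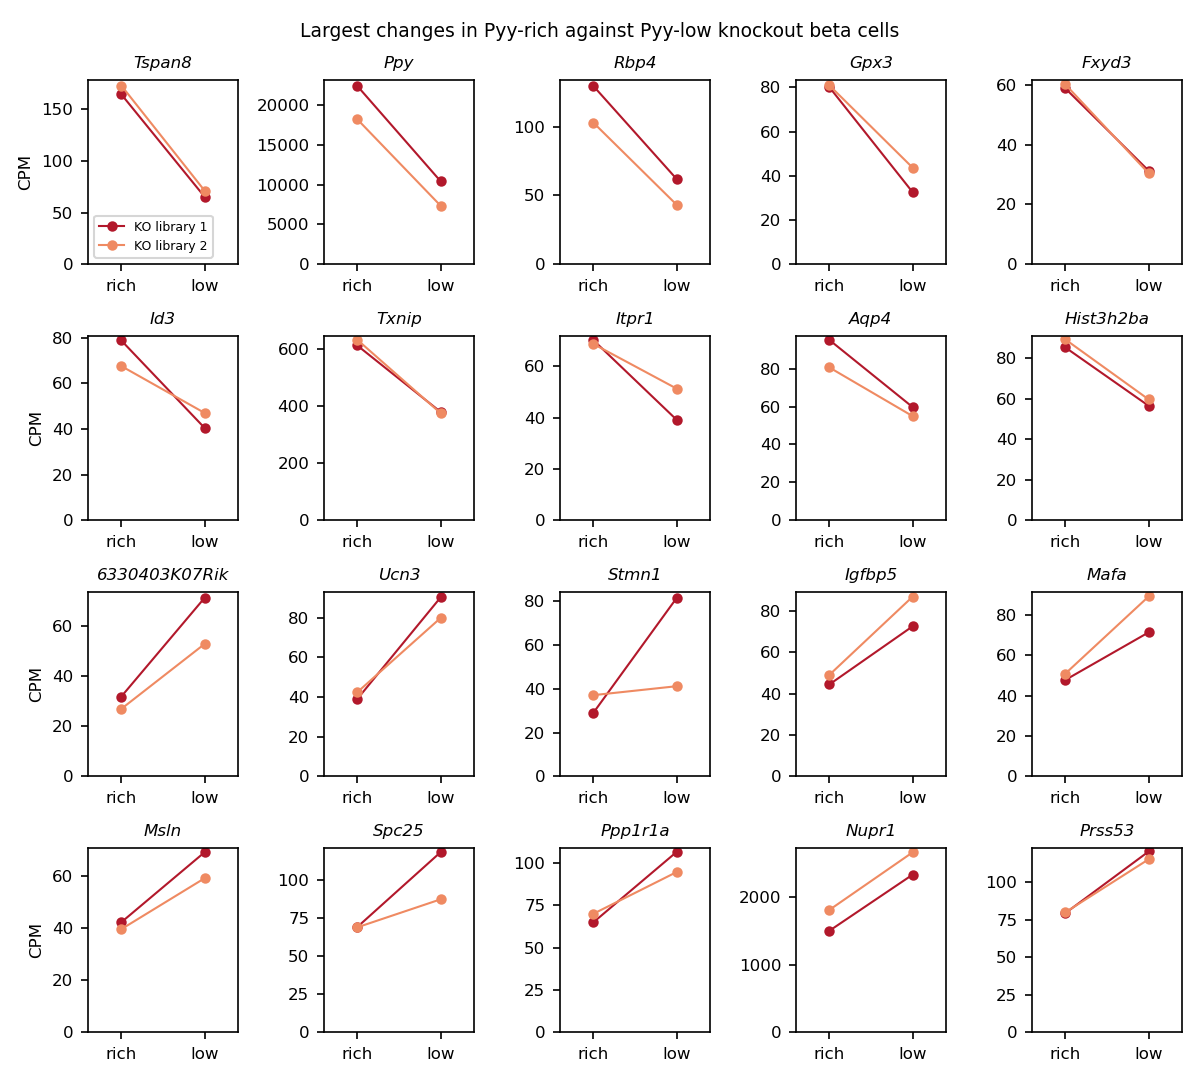
CPM of the 10 genes with the largest higher and the 10 with the largest lower calls, among genes with at least 50 CPM in the class with more, in rich (left) and low (right) KO beta cells, with 1 line per library. In both libraries the rich point is above the low one in the top 2 rows and below it in the bottom 2 rows; for Stmn1 the gap in KO library 2 (37.1 against 41.2 CPM) is far smaller than in KO library 1 (29.0 against 81.6 CPM).

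Beta cell genes fell in part. Of 13 tested beta cell markers 7 were lower and 0 higher, with a median log2 change of -0.10, against 0.00 over all genes; DESeq2 called 6 lower and limma-voom 8, and 0 were higher at an unadjusted p under 0.05. Of 38 genes of beta cell identity and maturity 14 were lower, 5 were higher and 19 were not called. Without KO library 1 the counts were 7 lower and 1 higher, and without KO library 2 they were 10 and 1. Slc2a2, encoding the transporter that lets glucose into mouse beta cells, stood at 53.0 and 56.8 CPM in rich cells, against 77.1 and 68.8 CPM in low cells (log2 change -0.415, SE 0.06, adjusted p = 0.00101). The log2 change of Slc2a2 was -0.26 (adjusted p = 0.149) without KO library 1. G6pc2, which hydrolyses glucose 6-phosphate, stood at 204 and 234 CPM in rich cells, against 293 and 298 CPM in low cells (-0.43, SE 0.04, adjusted p = 4.12e-05). Sytl4, or granuphilin, a docking protein of insulin granules, fell by 0.63 (SE 0.04, adjusted p = 9.69e-06). Iapp, the amyloid peptide stored with insulin, stood at 105624 and 101666 CPM in rich cells, against 110537 and 102201 CPM in low cells (log2 change -0.02, adjusted p = 0.531). Pdx1 had a log2 change of -0.04 (adjusted p = 0.585) and Nkx6-1 of -0.025 (adjusted p = 0.712); both encode transcription factors of the beta cell lineage. Iapp, Pdx1 and Nkx6-1 did not pass the test, and their sign turned when sums were scaled by cell number.

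Across levels of Pyy, values of these genes differed by degrees. Cells were put into 7 bins of Pyy, from 0 to 9 UMIs up to 3000 and more; the bins are a description with no test. In KO library 1, Ucn3 stood at 101, 109, 78.9, 66.9, 48.4, 34.3 and 29.6 CPM from the lowest to the highest bin. In KO library 2 it stood at 91.8, 77.0, 68.3, 61.1, 49.2, 38.6 and 29.4 CPM. Ucn3 was thus already lower in the bin from 100 UMIs up to the limit than in those below 10. Mafa was 57.7 CPM in the lowest and 28.7 CPM in the highest bin of KO library 1, with 84.6 CPM in the bin of 10 to 33 UMIs. In KO library 2 Mafa was 88.6 CPM in the lowest and 25.8 CPM in the highest bin, with 104 CPM in the bin of 34 to 99 UMIs. Tspan8 was higher in each bin than in the one before, between 35.1 and 228 CPM in KO library 1 and between 46.8 and 233 CPM in KO library 2. Nupr1 was lower in each bin than in the one before, between 2647 and 1139 CPM in KO library 1 and between 2947 and 1468 CPM in KO library 2. Areg had no such order: it was 145 CPM in the lowest, 71.5 CPM in the 34 to 99 and 120 CPM in the highest bin of KO library 1.

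**Figure D3:**
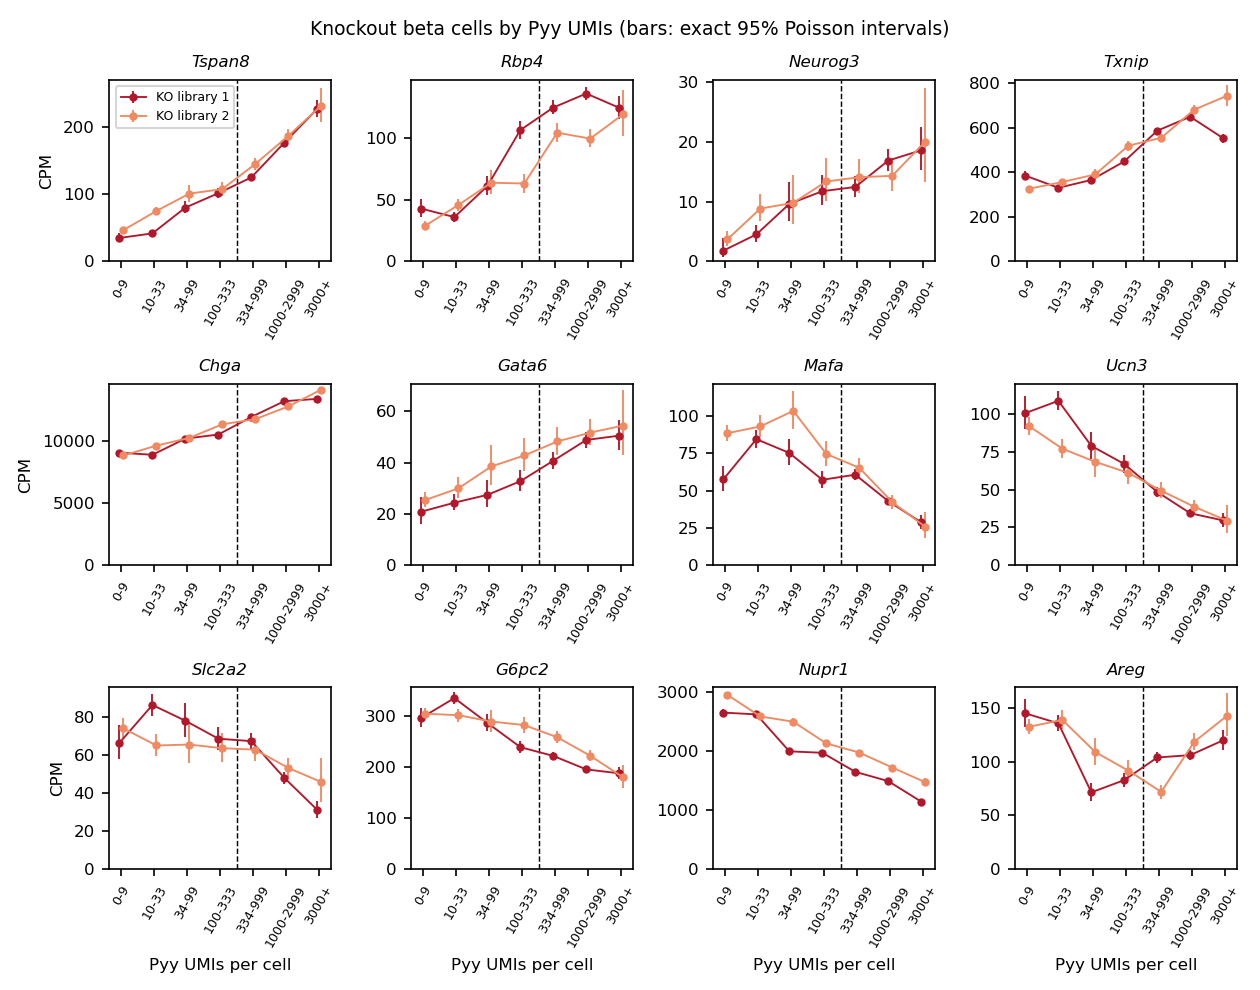
CPM of 12 genes in 7 bins of Pyy UMIs per cell, for each KO library, with exact 95% Poisson intervals of the summed counts; the dashed line is the limit. Tspan8, Neurog3, Chga and Gata6 are higher and Mafa, Ucn3, G6pc2 and Nupr1 lower in the highest than in the lowest bin of both libraries, and Areg is lowest in a middle bin.

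Some PP cell genes rose. Of 8 tested PP cell markers 5 were higher and 0 lower, with a median log2 change of 0.16; limma-voom called 6 higher and DESeq2 2, and 0 were lower at an unadjusted p under 0.05. The count higher was 2 without KO library 1 and 3 without KO library 2. Ptger3, a prostaglandin E receptor, stood at 8.19 and 6.86 CPM in rich cells, against 1.34 and 2.91 CPM in low cells (log2 change 1.895, SE 0.24, adjusted p = 7.31e-04; 1.25 without KO library 1). Isl1, a LIM homeodomain factor of all islet endocrine cells, had a log2 change of 0.16 (adjusted p = 0.00931), with adjusted p = 0.135 without KO library 1 and 0.859 without KO library 2. Meis2, a homeobox factor, had a log2 change of 0.15 (adjusted p = 0.00348), with adjusted p = 0.494 without KO library 1 and 0.547 without KO library 2. Etv1, an ETS factor of PP cells, stood at 26.9 and 23.1 CPM in rich and 23.8 and 22.6 CPM in low cells (0.135, adjusted p = 0.25). For scale, PP cells of the KO libraries (283 and 142 cells with Ppy and Pyy together at 5% or more and insulin under 10%) held Etv1 at 183 and 212 CPM and Mafa at 1.999 and 1.606 CPM. They held Ucn3 at 6.71 and 5.62 and Gata6 at 62.4 and 69.1 CPM. As differences of CPM, the rich cells of both libraries lay nearer to the low cells than to the PP cells in Etv1 and Mafa. By that measure they lay nearer to the PP cells, in part by small margins, in Ucn3 and Gata6. On the log2 scale they lay nearer to the low cells in Ucn3 too, and nearer to the PP cells in Gata6 alone among these genes. The totals behind these CPM kept Ppy, which stood at 360632 and 358009 CPM in PP cells and so lowers the values of their other genes. All these distances, that of Gata6 among them, depend on this scaling. They were not computed with Ppy left out and have no test. Gata6, a GATA factor of pancreas development and outside the PP list, stood at 46.0 and 50.4 CPM in rich cells, against 26.9 and 31.0 CPM in low cells (0.755, SE 0.05, adjusted p = 5.91e-06). Of 10 tested factors of other islet lineages, Isl1, Meis2 and Gata6 were higher and 0 were lower; 1 was lower at an unadjusted p under 0.05, and DESeq2 and limma-voom called 0 lower.

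Rich cells with more Ppy held less Mafa and Ucn3 than those with less. The cells with more than 100 Ppy UMIs numbered 900 and 293, and those with 100 or fewer numbered 620 and 232. Ucn3 was 35.5 and 36.3 CPM in the cells with more Ppy, against 44.8 and 51.1 CPM. Mafa was 34.1 and 42.9 CPM in the cells with more Ppy, against 70.3 and 62.2 CPM. Neurog3 was 14.1 and 13.1 CPM in the cells with more Ppy, against 17.7 and 17.1 CPM. The limit of 100 Ppy UMIs was chosen after values had been seen, and these are values with no test.

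Neurog3, the factor that starts endocrine differentiation in the embryo, stood at 15.5 and 14.7 CPM in rich cells, against 7.16 and 7.48 CPM in low cells. Its log2 change was 1.07 (SE 0.09, adjusted p = 4.30e-05), and it was 18.6 and 20.1 CPM in the highest Pyy bins of the libraries and 1.81 and 3.70 CPM in the lowest. Aldh1a3, an enzyme of retinoic acid synthesis and a marker of dedifferentiated beta cells, did not follow it: it stood at 7.92 and 8.58 CPM in rich cells, against 12.0 and 9.66 CPM in low cells (log2 change -0.41, adjusted p = 0.0556). Of 18 tested genes of progenitor and dedifferentiated cells 3 were higher and 2 lower, with a median of 0.03; without KO library 1 these counts were 2 and 1, and without KO library 2 they were 3 and 0. Cd81, a tetraspanin, rose by 0.40 (SE 0.02, adjusted p = 1.80e-06). Dcdc2a had a log2 change of 0.27 (adjusted p = 0.00118; 0.0507 without KO library 1). Of 12 tested genes that are normally silent in beta cells, edgeR, DESeq2 and limma-voom called 0, and 2 had an unadjusted p under 0.05, 1 in each direction.

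Other gut and epsilon cell hormone genes were not called higher in rich cells. Gcg and Sst helped choose the cells and were not tested. In the lowest and highest Pyy bins Sst stood at 44.4 and 154.7 CPM in KO library 1. It stood at 43.4 and 110.3 CPM in KO library 2, with no steady order between in either library. Gcg stood at 530.5 and 623.6 CPM in KO library 1 and at 277 and 243.4 CPM in KO library 2. Of 8 tested gut and epsilon cell hormone genes 2 were lower and 0 higher, and 0 were higher at an unadjusted p under 0.05 or by DESeq2 or limma-voom. Cck, cholecystokinin, rested on few reads, 5 and 1 UMIs in rich and 24 and 15 UMIs in low cells (adjusted p = 0.00727; 0.561 and 0.0695 without KO library 1 and 2). Cartpt, a neuropeptide gene, stood at 6.54 and 3.94 CPM in rich cells, against 9.11 and 7.27 CPM in low cells (-0.605, adjusted p = 0.0132; 0.14 without KO library 2). Of 8 tested alpha cell markers Tmem27, which encodes collectrin, was higher by 0.36 (adjusted p = 2.12e-05). Gc, the vitamin D binding protein, fell by 0.355 (adjusted p = 6.33e-04), and Slc7a2, a transporter of basic amino acids, had a log2 change of -0.28 (adjusted p = 0.00392; 0.154 without KO library 2). Of 3 tested delta cell markers Rbp4, given above, and Fam159b were higher. Fam159b stood at 281 and 313 CPM in rich cells, against 222 and 295 CPM in low cells (log2 change 0.23, adjusted p = 0.00871; 0.89 without KO library 1). The delta cell genes Hhex and Ghsr were below 1 CPM in each KO class.

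Of 28 genes of secretory granules and prohormone processing 5 were higher, 6 lower and 17 not called, with a median log2 change of 0.01. The counts depended on both libraries: without KO library 1 they were 1 higher and 1 lower, without KO library 2 they were 1 and 2, and DESeq2 called 3 and 2. Chga, chromogranin A, stood at 12777 and 12484 CPM in rich cells, against 9631 and 9659 CPM in low cells (log2 change 0.405, SE 0.02, adjusted p = 1.23e-07). The classes did not overlap and the libraries of a class lay close together. Chgb, chromogranin B, had a log2 change of 0.09 (adjusted p = 0.0151; 0.874 without KO library 1 and 0.975 without KO library 2). Scg2, secretogranin II, had a log2 change of -0.26 (adjusted p = 2.55e-05; 0.172 without KO library 1). Scg3, secretogranin III, which binds chromogranin A, had a log2 change of -0.23 (adjusted p = 4.30e-05; 0.155 and 0.0523 without KO library 1 and 2).

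Most chaperone and ERAD genes did not pass the test between rich and low cells, and those that did were mostly lower. Of 38 genes of ER chaperones and the unfolded protein response 5 were lower, 1 was higher and 32 were not called, with a median log2 change of -0.007; over all genes 4.28% were lower and 3.10% higher. With either KO library left out 3 were lower and 1 was higher. Hspa5, the chaperone BiP, stood at 1282 and 1274 CPM in rich and 1299 and 1302 CPM in low cells (log2 change -0.01, SE 0.02, adjusted p = 0.84). Derl3, an ERAD gene induced by ER stress, stood at 71.4 and 80.9 CPM in rich and 74.3 and 88.0 CPM in low cells (-0.07, adjusted p = 0.318). Ero1lb, the ER oxidase of beta cells, fell by 0.30 (SE 0.03, adjusted p = 5.29e-05), its relative Ero1l by 0.40 (adjusted p = 8.48e-05) and the chaperone cofactor Sdf2l1 by 0.26 (adjusted p = 3.96e-05). Of 31 ERAD genes 4 were lower and 0 higher, and 0 were higher at an unadjusted p under 0.05, by DESeq2 or by limma-voom. With either KO library left out 1 was lower. Edem1, which trims mannose from misfolded glycoproteins, fell by 0.34 (adjusted p = 2.57e-04). Derl1 and Derl2, channel components, had log2 changes of -0.16 (adjusted p = 0.00479) and -0.15 (adjusted p = 0.0104). Neither was called without KO library 1 (adjusted p = 0.158 and 0.323) or KO library 2 (0.701 and 0.725).

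Of 34 targets of the integrated stress response 11 were lower in rich cells, 1 was higher and 22 were not called, with a median log2 change of -0.09. The count lower was 4 without KO library 1, 3 without KO library 2 and 3 by DESeq2. Besides Nupr1, Trib3, a pseudokinase induced by this response, fell by 0.31 (adjusted p = 2.04e-04). Ddit3, encoding CHOP, stood at 187 and 175 CPM in rich cells, against 220 and 203 CPM in low cells (log2 change -0.21, adjusted p = 5.19e-04; 0.212 and 0.0749 without KO library 1 and 2). Atf4, the factor at the centre of the response, had a log2 change of -0.11 (adjusted p = 0.0147; 0.724 and 0.835 without KO library 1 and 2). Areg, amphiregulin, a ligand of the EGF receptor, stood at 107 and 101 CPM in rich and 111 and 125 CPM in low cells (-0.15, adjusted p = 0.108). Areg passed the test without KO library 1 (log2 change -0.30, adjusted p = 0.0104).

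Of 22 immediate early genes 9 were higher and 13 not called, with a median log2 change of 0.17; DESeq2 called 8 and limma-voom 10 higher, and 2 were lower at an unadjusted p under 0.05. Without KO library 1, 5 were higher and 1 lower, and without KO library 2, 4 were higher and 0 lower. Fos stood at 1243 and 1452 CPM in rich cells, against 1028 and 1148 CPM in low cells (log2 change 0.32, adjusted p = 6.92e-06). Within each library the rich value was the larger one. Dusp1, a phosphatase of MAP kinases, rose by 0.43 (adjusted p = 1.22e-05), and Egr1, a zinc finger factor, had a log2 change of 0.27 (adjusted p = 3.98e-05; 0.0689 without KO library 1). Of 30 tested genes of TGF-beta signalling 5 were higher and 2 lower, among them Id3, Klf10 (0.42, adjusted p = 7.45e-04) and Id2 (0.27, adjusted p = 0.00215; 0.291 without KO library 2). Over all tested genes 3.10% were higher and 4.28% lower, and DESeq2 called 0 of the 30. Klf10 is an early target of TGF-beta, and ID proteins are known targets of BMP signals. The islets were dissociated with trypsin, and whether its handling touched the immediate early genes was not tested.

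Genes of cholesterol synthesis and respiration were lower where they were called. Of 19 genes of cholesterol synthesis 7 were lower and 0 higher, with a median log2 change of -0.18; 0 were higher at an unadjusted p under 0.05, by DESeq2 or by limma-voom. The count lower was 6 without KO library 1 and 1 without KO library 2. Fdps, which makes farnesyl diphosphate, fell by 0.32 (adjusted p = 5.47e-05). Msmo1, a sterol demethylase, and Sqle, squalene epoxidase, had log2 changes of -0.26 (adjusted p = 0.00101) and -0.24 (adjusted p = 0.00273), and without KO library 2 neither was called (0.12 and 0.305). Of 73 genes of oxidative phosphorylation 11 were lower and 0 higher, with a median of -0.02; limma-voom called 1 higher, and 1 was higher at an unadjusted p under 0.05. With either KO library left out 0 of the 73 were called. Among those named was Uqcrq, a subunit of complex III, at -0.19 (adjusted p = 3.85e-04; 0.114 and 0.453 without KO library 1 and 2). Of 16 glycolysis genes 3 were lower and 2 higher; without KO library 1 and by DESeq2 0 were called, and without KO library 2 1 was higher and 0 lower. Pdk1, which restrains pyruvate dehydrogenase, had a log2 change of 0.30 (adjusted p = 0.00525; 0.155 without KO library 1), and Gapdh of -0.14 (adjusted p = 0.00266; 0.653 and 0.522 without KO library 1 and 2). Of 31 proteasome genes edgeR, DESeq2 and limma-voom called 0, and 5 had an unadjusted p under 0.05, 4 of them lower.

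Cycling cells were fewer among rich cells of KO library 1. Cells with UMIs of at least 3 of 9 cycle genes were 0.92% of rich cells (14 of 1520, exact interval 0.50% to 1.54%) and 3.06% of low cells (29 of 949, interval 2.06% to 4.36%) there. In KO library 2 they were 1.14% of rich cells (6 of 525, interval 0.42% to 2.47%) and 1.39% of low cells (12 of 866, interval 0.72% to 2.41%), and these intervals overlap. Of 24 cycle genes 11 were lower and 1 was higher; without KO library 1 and by DESeq2 4 were lower and 0 higher, and without KO library 2 9 were lower and 0 higher. Cenpf, a kinetochore protein, stood at 9.77 and 8.90 CPM in rich cells, against 38.9 and 29.3 CPM in low cells (log2 change -1.89, adjusted p = 1.75e-07). Ube2c, a ubiquitin conjugating enzyme of mitosis, fell by 2.03 (adjusted p = 7.58e-07) and Ccnb1, cyclin B1, by 2.16 (adjusted p = 1.63e-04). Cycling cells were left out in a further fit, a choice made after the data had been seen. There 1 cycle gene was lower instead of 11, while 1137 genes were called in all. The 9 genes that chose the removed cells were all among these 11, so this drop followed from the choice and is no test.

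Genes of antigen presentation and metal binding were called in both directions. Of 23 genes of MHC class I and interferon response 5 were higher and 2 lower; with either KO library left out 0 were higher and 2 lower, with library size alone 1 was higher, and DESeq2 called 0. B2m, the light chain of MHC class I, fell by 0.585 (adjusted p = 0.001), Bst2, or tetherin, by 0.66 (adjusted p = 0.00231), and Psmb10, an immunoproteasome subunit, had a log2 change of 0.23 (adjusted p = 0.00292; 0.226 and 0.137 without KO library 1 and 2). Without cells of a Ppy share of 1% or more, B2m had a log2 change of -0.40 (adjusted p = 0.08) and Bst2 of -0.37 (adjusted p = 0.102). Neither was called by DESeq2, and Bst2 was called in 15 of 21 alternatives. Of 10 genes of zinc handling and metallothioneins 2 were higher and 2 lower; without KO library 2 and with library size alone 0 were higher, and DESeq2 called 0. Mt3 fell by 0.64 (adjusted p = 0.00193). Mt2 and Mt1, metal binding proteins, had log2 changes of 0.21 (adjusted p = 0.0222) and 0.18 (adjusted p = 0.0415), and without KO library 2 neither was called (0.849 and 0.997).

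Markers of endothelial, macrophage, stromal, Schwann and acinar cells summed to under 100 CPM in both classes, while duct markers did not, through Krt7. The 7 endothelial markers summed to 35.12 and 13.98 CPM in rich and 54.9 and 16.6 CPM in low cells, against 13601 and 13411 CPM in endothelial cells. Of them Kdr, the receptor of VEGF, was lower at -0.67 (adjusted p = 0.00772; 0.483 without KO library 1). The 8 macrophage markers summed to 69.4 and 56.1 CPM in rich and 76.5 and 88.1 CPM in low cells, mostly C1qa, a complement gene, which had a log2 change of -0.41 (adjusted p = 5.77e-04). C1qa was at -0.245 (adjusted p = 0.157) without cells of a Ppy share of 1% or more, and it was called neither by DESeq2 nor in cells thinned to 10000 UMIs. The 7 stromal markers summed to 10.9 and 1.65 CPM in rich and 2.196 and 13.94 CPM in low cells, and 0 of 7 were called or had an unadjusted p under 0.05 (edgeR; likewise 0 called by DESeq2 and limma-voom). The libraries went opposite ways in these: 4 were lower without KO library 1 and 4 higher without KO library 2. The 7 Schwann cell markers summed to 16.1 and 17.8 CPM in rich and 16.6 and 17.9 CPM in low cells; Ngfr, with 6 and 0 UMIs in rich and 19 and 37 UMIs in low cells, was lower (adjusted p = 0.0111; 0.324 without KO library 2). The 7 duct markers summed to 466 and 423 CPM in rich and 516 and 511 CPM in low cells, nearly all of it Krt7, a keratin, which had a log2 change of -0.13 (adjusted p = 0.00346; 0.563 and 0.721 without KO library 1 and 2). Spp1, osteopontin, had a log2 change of -1.48 (adjusted p = 0.00996), with -2.73 without KO library 1 and -0.67 without KO library 2. The 6 acinar markers summed to at most 0.51 CPM in each KO class and were not tested. The part of free RNA and of undetected doublets in these values was not tested.

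The same split within WT beta cells gave larger differences for many of these genes. The WT classes are a small set of 120 and 113 rich cells, of which 23.3% and 40.7% were called as doublets. In WT cells 2146 of 14481 genes (14.8%) were called, 6.51% higher and 8.31% lower in rich cells, and the effect of Pyy richness differed between KO and WT for 890 of 14481 genes (6.15%), with the difference above 0 for 3.35% and below 0 for 2.80%. The 890 fell to 572 without doublet calls, and to 492 without WT library 2 and 540 without KO library 1. Ppy stood at 95672 and 104040 CPM in WT rich cells and 714 and 694 CPM in WT low cells, a log2 change of 7.19, and its KO change was smaller (difference of log2 changes -5.97, adjusted p = 3.13e-23). Tspan8, Rbp4, Id3 and Etv1 likewise had smaller changes in KO cells, by -1.24, -1.78, -1.97 and -1.94. Mafa stood at 269 and 208 CPM in WT rich and 646 and 593 CPM in WT low cells, a log2 change of -1.33, and its KO change was less negative by 0.67 (adjusted p = 1.14e-05). Chga was among the few with the larger change in KO cells (0.24, adjusted p = 0.00113). Lpl, lipoprotein lipase, had a log2 change of 0.485 in KO and -0.62 in WT cells (difference 1.10, adjusted p = 2.77e-09). The effects of Gata6, Ptger3, Aqp4 and Itpr1 were not called as different (adjusted p = 0.163, 0.156, 0.154 and 0.351).

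**Figure D4:**
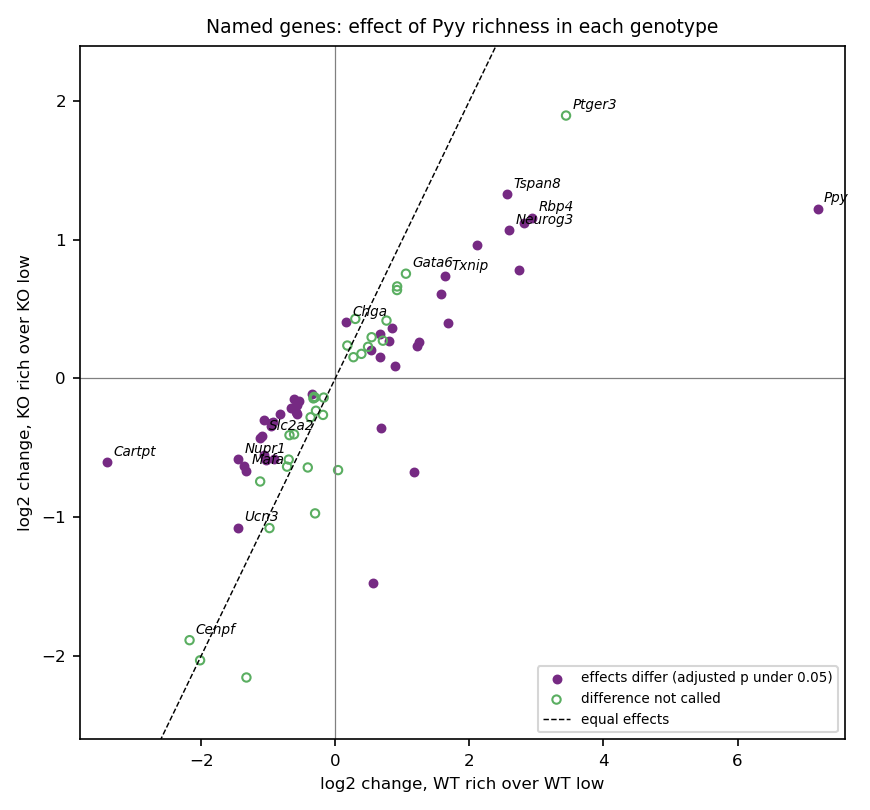
Log2 change of rich over low KO cells (vertical) against that of rich over low WT cells (horizontal) for named genes called in the KO comparison; filled points differ between genotypes at an adjusted p under 0.05, and the dashed line marks equal effects. Genes named only for their difference between genotypes, such as Lpl, are left out. So are Cck (-2.99) and Ngfr (-3.24), whose KO changes lay beyond the vertical axis. Most of the points drawn lie in the same direction in both genotypes and on the side of the larger WT effect, with Ppy farthest out at 7.19 in WT cells.

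Beside typical WT beta cells, rich and low KO cells both stood far off, with the larger log2 changes of Mafa, Ucn3, Slc2a2 and G6pc2 in rich cells. KO rich cells differed from WT low cells in 6065 of 14695 genes (41.3%; 20.8% higher, 20.4% lower). KO low cells differed from them in 5182 of 14425 genes (35.9%; 18.2% higher, 17.7% lower). Both comparisons use the same WT sums, so they are given side by side and not as independent results. Mafa, at 646 and 593 CPM in WT low cells, had a log2 change of -3.73 in KO rich and -3.04 in KO low cells. Ucn3 had -2.94 in KO rich and -1.89 in KO low cells, Slc2a2 -2.56 and -2.15, and G6pc2 -1.85 and -1.43. Pdx1 and Nkx6-1 had -1.09 and -1.03 in KO rich cells and -1.05 and -1.01 in KO low cells. Ppy rose by 4.775 in KO rich and 3.57 in KO low cells, and Neurog3 by 4.38 and 3.32. The median low cell held Ppy at 1058 and 601 CPM in KO and 359 and 500 CPM in WT libraries, against 545 and 254 CPM and 231 and 453 CPM in the median endothelial cell of the same libraries; the part of free RNA in the Ppy of low cells was not tested. Txnip rose by 2.18 in KO rich and 1.445 in KO low cells. Areg rose by 7.495 and 7.66, Aldh1a3 by 4.01 and 4.39, Nupr1 by 2.57 and 3.15, Derl3 by 5.10 and 5.19 and Hspa5 by 0.91 and 0.92 in KO rich and KO low cells. All 14 genes named here passed the test in both comparisons, the largest adjusted p being 0.00218 for Nupr1 in KO rich cells. Scaling by cell number shifted the median over all genes to 0.93 for KO rich and 0.88 for KO low cells, and Pdx1 and Nkx6-1 were no longer called.

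As lists, chaperone and ERAD genes were mostly higher in both KO classes than in WT low cells, and targets of the integrated stress response were called in both directions. The counts are to be read beside the shares over all tested genes, 20.8% higher and 20.4% lower in KO rich cells. In KO low cells these shares were 18.2% and 17.7%. Of 38 genes of ER chaperones and the unfolded protein response 28 were higher and 2 lower in KO rich cells (median log2 change 0.55), and 29 were higher and 1 lower in KO low cells (0.62). Of 31 ERAD genes 20 were higher and 1 lower in KO rich cells (0.27), and 23 were higher and 1 lower in KO low cells (0.30); with 1 KO library left out, 14 were higher in KO rich and 14 or 15 in KO low cells. The 1 lower ERAD gene was Sel1l. Of 34 integrated stress response targets 9 were higher and 20 lower in KO rich cells (-0.29), and 10 were higher and 15 lower in KO low cells (-0.17). Ddit3, Nupr1 and the hormone Fgf21 were among the higher ones in both classes, and Atf4 and the amino acid synthesis genes Asns, Psat1 and Phgdh among the lower ones; these examples were chosen after their values had been seen. The direction of the stress response targets turned when sums were scaled by cell number, to 25 higher and 1 lower in KO rich and 28 higher and 1 lower in KO low cells; their medians, 0.63 and 0.70, then still lay below the shifted medians of all genes.

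**Figure D5:**
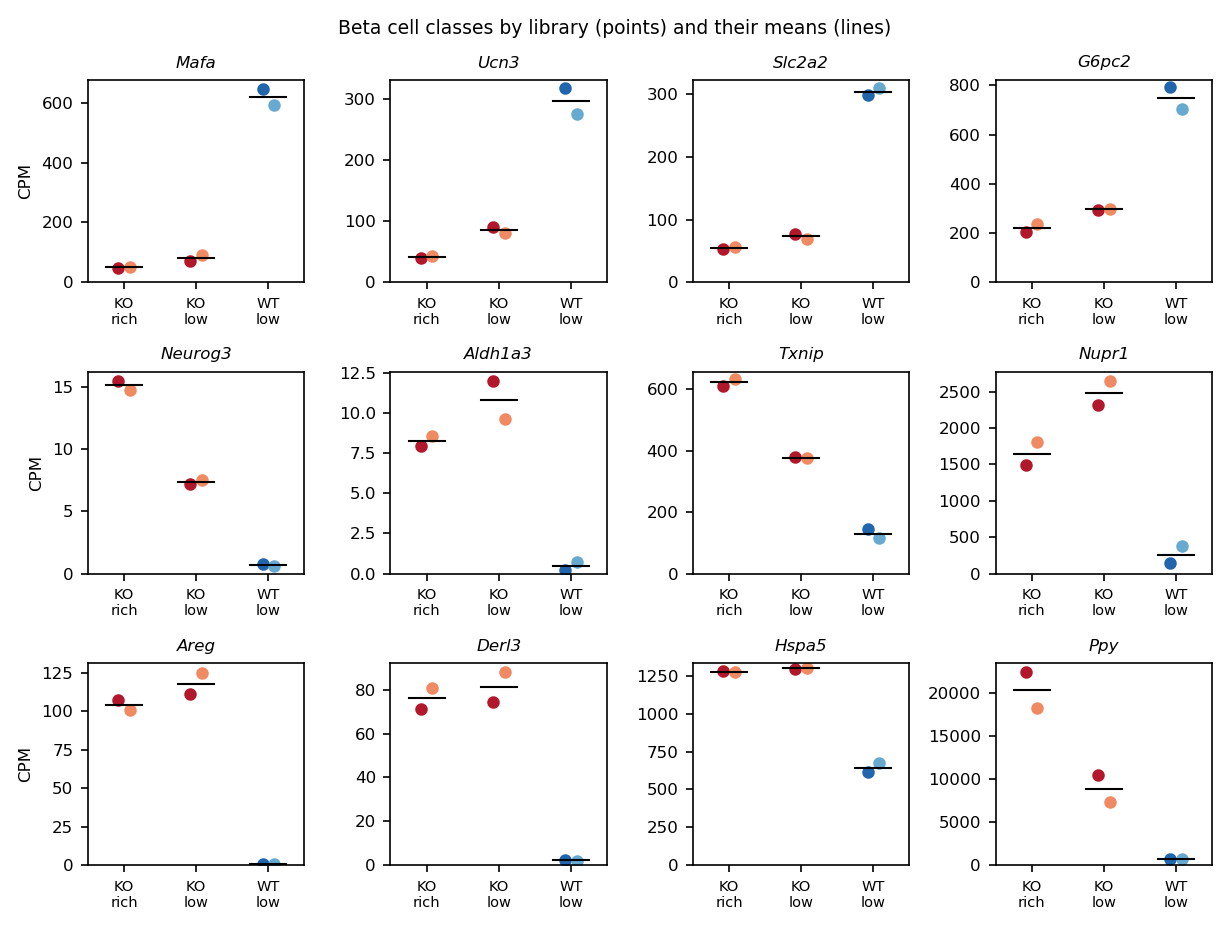
CPM of 12 genes in KO rich, KO low and WT low beta cells, with 1 point per library and lines at the means. Mafa, Ucn3, Slc2a2 and G6pc2 are highest in WT low and lowest in KO rich cells; Nupr1 and Aldh1a3 are highest in KO low cells; and Neurog3, Txnip and Ppy are highest in KO rich cells.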

How the data were processed

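Single cells from mouse islets were profiled by 10x Genomics 3′ sequencing in 2 KO and 2 WT libraries. The authors deposited counts, as UMIs per gene and cell after cell filtering, made with Cell Ranger 3.0.0 and Seurat 2.3.4 on mm10, per the submitters' processing notes. A beta cell was rich in Pyy above 333 Pyy UMIs and low at 333 or fewer. Cells were summed by library and class (rich or low), and Ins1, Ins2, Gcg, Sst and Pyy, which chose the cells, were removed before scaling and never tested. The KO classes were compared over 4 sums with library as block, the WT classes and the difference between genotypes over 8 sums with library blocks, and each KO class with WT low cells over 4 sums without a block. The test was edgeR 4.0.16 quasi-likelihood with TMM scaling, filterByExpr and Benjamini-Hochberg adjustment at 0.05 over all tested genes, in R 4.3.3; DESeq2 1.42.0 and limma 3.58.1 (voom) were alternatives. Doublets were called with an own version of the Scrublet method at 0.8% per 1000 cells and were kept in the sums. Rich and low sums of 1 library are paired because they come from the same library. The fits were tested on simulated counts with 200 genes changed by 1 on the log2 scale and a dispersion of 0.01 for all genes. They recovered 91% of these changes between KO classes, 71% between WT classes and 50.5% for the difference between genotypes. Against WT low cells they recovered 95.5% for KO rich and 89% for KO low cells. False calls made up 1.94% to 4.5% of calls. Spread in the real libraries may differ from this setting. Exact binomial intervals are Clopper-Pearson. The median beta cell of each KO class held between 42697 and 53029 UMIs, which sets the counting error.

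Named genes were the 10 largest higher and the 10 largest lower calls with at least 50 CPM in the higher class and the same direction in both libraries (sex-linked and mitochondrially encoded genes left out), the called genes of lowest p in each list (at most 3), the 5 smallest adjusted p-values in each direction for the difference between genotypes, and a panel of islet, ERAD and stress genes. The members and gene lists were chosen with earlier results of these data known. Some named genes are not reported here.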

Additional observations from a re-analysis of the deposited data

Results flagged for a closer look

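For 53 of the 89 named genes with values, the effect of Pyy richness differed between KO and WT beta cells at an adjusted p under 0.05 (edgeR quasi-likelihood test of the difference over 8 sums). Over all tested genes it differed for 890 of 14481 (6.15%). The named genes include 10 chosen by this same test, and many others were chosen for their change in KO cells. The count of 53 thus follows in part from the choice of genes. The values are log2 change in KO minus log2 change in WT. For 22 genes the difference was below 0. They were Ppy (-5.97), Spp1 (-2.02), Id3 (-1.97), Etv1 (-1.94), Kdr (-1.85), Rbp4 (-1.78), Gpx3 (-1.69), Neurog3 (-1.53), Cd81 (-1.28), Tspan8 (-1.24), Fxyd3 (-1.15), Gc (-1.04), Fam159b (-0.99), Id2 (-0.98), Hist3h2ba (-0.97), Txnip (-0.90), Chgb (-0.81), Egr1 (-0.54), Isl1 (-0.51), Tmem27 (-0.48), Fos (-0.35), Mt2 (-0.32). For 31 genes it was above 0. They were Atf4 (0.23), Chga (0.24), Pdx1 (0.27), Sdf2l1 (0.31), Ppp1r1a (0.33), Sqle (0.34), Ucn3 (0.36), Uqcrq (0.37), Derl1 (0.38), Nkx6-1 (0.38), Iapp (0.41), Spc25 (0.44), Ddit3 (0.45), Derl2 (0.46), Prss53 (0.51), Sel1l (0.55), Msmo1 (0.57), Trib3 (0.61), Edem1 (0.62), Fdps (0.64), Mafa (0.67), Slc2a2 (0.67), G6pc2 (0.69), Sytl4 (0.72), Ero1lb (0.75), Atf5 (0.83), Nupr1 (0.87), Lpl (1.10), Kdm2b (1.12), Cartpt (2.79), Cd74 (4.37).

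WT rich cells numbered 120 and 113 and held doublet calls at 23.3% and 40.7%, against 4.85% and 4.82% in WT low cells. Without doublet calls 572 of all tested genes differed instead of 890. Of the 10 genes named for their difference between genotypes, 9 were still called without doublet calls and Cd74 was not (1.48, adjusted p = 0.312).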

How the results depend on the processing

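Between rich and low KO cells, 1691 genes were called with RLE scaling (708 higher, 983 lower), 1669 with a mean of at least 20 counts (703, 966), 1674 with the cell-choosing genes kept in the totals (712, 962) and 1873 with rich cells set by a Pyy share of 1% (744, 1129). Fewer were called by DESeq2 (157, with 67 higher and 90 lower), in cells thinned to 10000 UMIs (336, 145, 191), without cells of a Ppy share of 1% or more (544, 219, 325) and with no replicate block (43, 23, 20). With no replicate block Ppy was not called (adjusted p = 0.0561). With library size alone 278 genes were higher (33.9% of calls, against 42.0%), and scaled by cell number 781 were higher and 342 lower (69.5% higher). Leaving out 1 KO library gave 330 to 563 calls, 120 to 200 higher and 210 to 363 lower; the lone KO pair was then assumed to vary like the WT libraries. Without cycling cells, an alternative added after seeing the data, 1137 were called.

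In WT cells, leaving out doublet calls gave 1406 calls (598 higher), and leaving out 1 library gave 1189 to 2081 calls, 380 to 909 higher. For the difference between genotypes these were 572 calls (286 higher) without doublets, and 492 to 767 calls, 245 to 543 higher and 171 to 341 lower, without 1 library. With library size alone 33.7% of WT calls were higher, against 43.9%, and 65.3% of genotype differences, against 54.5%. Scaled by cell number, KO rich against WT low cells gave 12562 calls (12193 higher, 369 lower) and KO low against WT low cells 12416 (12161 higher, 255 lower). With library size alone 61.8% of calls were higher for KO rich against WT low cells, against 50.5%, and 64.8% for KO low against WT low cells, against 50.8%. Replicate numbers were not used to pair KO with WT libraries, since the labels do not say that they mark pairs. Deviations of same-numbered libraries had correlations of -0.053 and 0.003 over genes. With a single difference per genotype this cannot show whether such libraries were handled together. A replicate block gave 5796 and 5670 calls.

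Of single genes, the log2 change turned sign for Iapp (0.029), Pdx1 (0.010), Nkx6-1 (0.025), Hspa5 (0.041) and Sel1l (0.043) scaled by cell number. It did so for Hspa5 (0.019) and Areg (0.017) with a Pyy share of 1%, for Hspa5 (0.029) with the limit at 100 UMIs, and for Nkx6-1 (0.013) and Areg (0.075) with it at 1000. With classes matched on total UMIs Iapp (0.005), Hspa5 (0.020) and Sel1l (0.015) turned, and in thinned cells Hspa5 (0.007). With insulin at 20% or more Kdr (0.160) and Iapp (0.001) turned. Without cells of a Ppy share of 1% or more Iapp (0.002), Etv1 (-0.123) and Sel1l (0.007) turned. With 1 KO library left out, Iapp ranged over -0.055 and 0.008, Nkx6-1 over -0.068 and 0.024, and Sel1l over -0.057 and 0.027. Of these only Kdr had been called. The cause was not tested.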
